A study of Mus musculus with 6 samples.

Results

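The 10 genes described here put peptides on MHC class I, and they were taken by symbol from a count table of 24537 genes, where all 10 had a row and all 10 passed the filter on low counts (13101 genes passed in all). They are the heavy chains H2-K1 and H2-D1, the light chain B2m, the peptide transporter genes Tap1 and Tap2, the loading factor Tapbp, the immunoproteasome subunits Psmb8, Psmb9 and Psmb10, and the transactivator Nlrc5. The list was set by function, with no threshold on a measured value, though earlier results of these data were known when it was chosen.

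RNA came from mouse brain tumor cells, as the label names the samples, from tumors raised in CD-1 IGS animals by in utero electroporation. This method drives DNA constructs into cells of the embryonic brain. All 6 libraries carried PdgfraD482V, a mutant form of a growth factor receptor, and DNp53, which by its usual reading is a dominant-negative p53. Of these, 3 were titled FOXR2, for a forkhead transcription factor added to those constructs, and 3 were titled Control, without it. Age, the promoters of the constructs and whether each library came from its own animal were not given in the sources used here, so the p-values measure the spread between these libraries, which may be technical. A sheet deposited beside the counts names the opposite group for 6 of 6 libraries. The counts of mouse Foxr2, 22, 1 and 7 in FOXR2 replicates 1 to 3 beside 4, 10 and 7 in Control replicates 1 to 3, do not settle it, and Pdgfra and Trp53 were not called (edgeR adjusted p = 0.187 and 0.378). Groups below follow the titles, and each difference changes sign if the sheet holds. By Xist and Y-linked genes, FOXR2 replicates 1 and 3 and Control replicate 1 were male and the other libraries female. Depth was 13429489 to 17927025 counts.

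MHC class I molecules show short peptides from inside a cell to CD8 T cells. The immunoproteasome cuts proteins into such peptides, TAP carries them into the endoplasmic reticulum, tapasin (Tapbp) helps to load them, and the complex of heavy chain and beta-2-microglobulin (B2m) takes them to the surface. Cells of the healthy brain show little class I. Interferons raise the genes together, in part through IRF factors and NLRC5.

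All 10 genes were high in the same libraries, as described below. Stretches before 3 annotated gene starts, those of the heavy chains and B2m, are shown, each cut around its matches. They hold letters of elements that interferon-linked or NF-kappaB factors are known to use. The bases are from RefSeq promoter windows of GRCm38.p6 (250 bases before to 50 after each start), matched by symbol for 8 of the 10 genes (all but Tap2 and Nlrc5). Each is read 5′ to 3′ on the gene's own strand, and capitals mark a match. The stretches lie at chr17:34000414-34000473 (minus strand, H2-K1), chr17:35262908-35262967 (plus strand, H2-D1) and chr2:122147533-122147585 (plus strand, B2m).
H2-K1: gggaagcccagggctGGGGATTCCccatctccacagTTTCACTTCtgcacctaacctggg
H2-D1: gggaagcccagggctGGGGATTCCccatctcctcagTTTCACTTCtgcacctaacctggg
B2m: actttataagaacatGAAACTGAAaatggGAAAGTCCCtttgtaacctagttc

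The H2-K1 and H2-D1 stretches were identical at 59 of 60 bases. Matches were sought on both strands. The letters GGGNNTTNC (NF-kappaB element) were found for H2-K1, H2-D1 and B2m, 3 of 8 genes, and in 15.2% of all 32851 windows of the same length. GAAANNGAA (interferon response element) was found for B2m alone among the 8 and in 8.56% of windows. TTCNNNGAA (STAT element) was found for Psmb8 alone, whose stretch is not shown, and in 8.30% of windows. GAANNGAAA (IRF element), a pattern added after the windows had been read, was found for H2-K1 and H2-D1 and in 7.52% of windows. A match is a description of letters and not evidence of binding.

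Tap1 and Psmb9 start 225 bases apart and are read away from each other, and the stretch between them (chr17:34187331-34187555, Tap1 strand) is shown because one run of DNA lies before both genes. None of the 4 patterns matched in it.
Tap1 to Psmb9: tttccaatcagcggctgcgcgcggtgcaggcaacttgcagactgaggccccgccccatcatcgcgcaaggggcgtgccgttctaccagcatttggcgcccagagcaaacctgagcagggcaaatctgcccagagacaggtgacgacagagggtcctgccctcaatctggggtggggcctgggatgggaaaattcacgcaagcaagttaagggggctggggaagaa

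All 10 genes stood highest in 2 of the 3 libraries titled FOXR2, replicates 2 and 3, while FOXR2 replicate 1 lay among or below the libraries titled Control. Relative to FOXR2 replicate 1, levels were 3.42 to 14.7 times as high in replicate 2 and 3.88 to 11.9 times as high in replicate 3. The lower of these replicates was 2.12 to 4.49 times the highest of the other 4 libraries. FOXR2 replicate 1 was the lowest of the 6 libraries for 4 genes, the second lowest for 4 and the third lowest for 2. Thus the groups overlapped for every one of the 10 genes (0 of 10 apart), where 13.1% of all tested genes had every library titled FOXR2 above every library titled Control. Levels are in CPM, the usual read count scaled to the depth of its library, here after TMM scaling. They are listed in the order of the replicate numbers, and the plot of levels by library shows them.

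**Figure D1:**
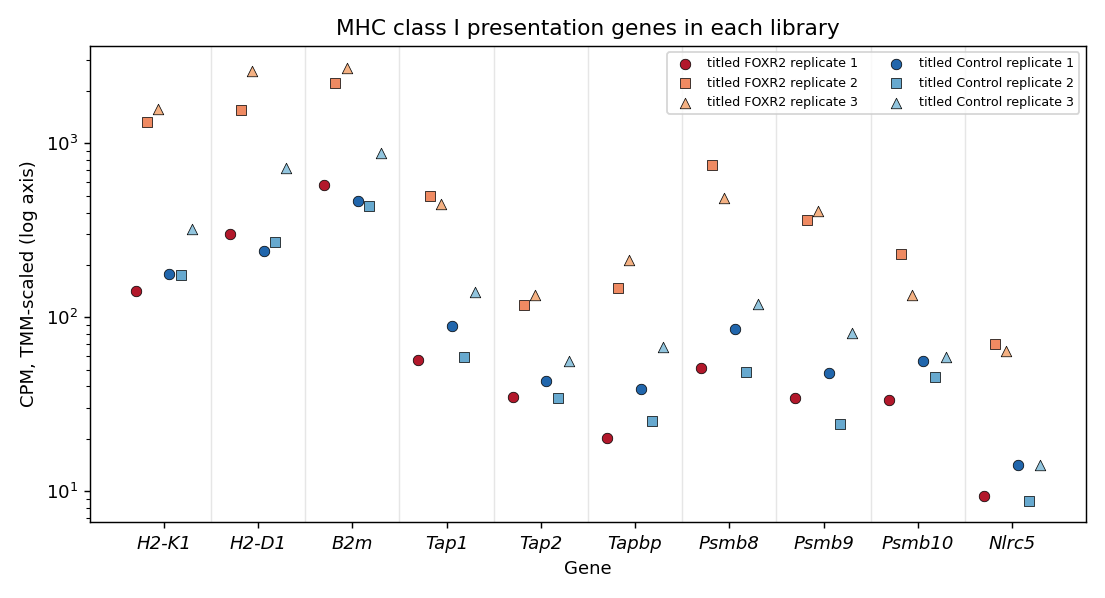
Level of each of the 10 genes in each library (y axis, CPM after TMM scaling, log axis), with 1 point for each of the 6 libraries and no averaging. The points of FOXR2 replicates 2 and 3 lie above the other 4 for every gene, at least 2.12 times the next library.

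The heavy chains carry the peptide groove. H2-K1 was at 142, 1331 and 1569 CPM in FOXR2 replicates 1 to 3 and at 177, 174 and 322 in Control replicates 1 to 3. H2-D1 was at 300.1, 1557 and 2618 CPM against 241, 272 and 720. FOXR2 replicate 1 was thus below every Control library for H2-K1, and between Control replicates 2 and 3 for H2-D1. B2m, the invariant light chain that the heavy chains need to reach the surface, gave 579, 2239 and 2730 CPM against 468, 434 and 880. Its spread was narrower than that of the heavy chains, with FOXR2 replicate 2 at 3.86 times replicate 1, where H2-K1 was at 9.38 and H2-D1 at 5.19 times. The H2 genes have near-identical copies, and how the authors counted reads that fit several of them was not given in the sources used here, so their counts are uncertain.

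The genes of peptide transport and loading were also highest in FOXR2 replicates 2 and 3. Tap1 was at 56.9, 497 and 446 CPM in FOXR2 replicates 1 to 3 and at 89.0, 58.8 and 139 in Control replicates 1 to 3. Tap2, the other part of the transporter, was at 34.6, 118 and 134 against 42.9, 34.1 and 55.7 CPM. The FOXR2 replicates differed less here than for Tap1, with replicate 2 at 3.42 times replicate 1 where Tap1 was at 8.73 times. Tapbp, which bridges TAP and the empty class I molecule, was at 20.2, 147 and 212 against 38.9, 25.2 and 67 CPM, and here FOXR2 replicate 1 was the lowest library.

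The immunoproteasome subunits replace the constitutive catalytic subunits of the proteasome when interferon acts. Psmb8 was at 50.9, 750 and 484 CPM in FOXR2 replicates 1 to 3 and at 85.7, 48.2 and 119 in Control replicates 1 to 3. Psmb9 was at 34.3, 361 and 407 against 48.1, 24.4 and 81.0 CPM. Psmb10 was at 33.3, 231 and 135 against 56.2, 45.6 and 59.3 CPM. In Psmb8 and Psmb10 replicate 2 was above replicate 3, by 1.55 and 1.71 times, whereas for H2-D1 and Tapbp it was at 0.595 and 0.692 of it. Nlrc5, the transactivator that acts at class I promoters, gave the lowest counts, down to 143 in FOXR2 replicate 1 (exact Poisson 95% interval 121 to 168, counting error only). It was at 9.33, 70.2 and 63.8 CPM against 14.2, 8.82 and 14.1, again high in FOXR2 replicates 2 and 3 only.

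The constitutive partners of the inducible subunits did not share this order. Psmb5, Psmb6 and Psmb7 had log2 fold changes (titled FOXR2 minus titled Control, ± standard error) of -0.19 ± 0.21, 0.40 ± 0.21 and -0.25 ± 0.21 (edgeR quasi-likelihood adjusted p = 0.619, 0.292 and 0.509). Divided by transcript length (merged exons of GENCODE M21), Psmb8 was at 0.279, 2.70 and 2.53 times the level of Psmb5 in FOXR2 replicates 1 to 3, and at 0.326, 0.194 and 0.513 times in Control replicates 1 to 3. Thus Psmb8 exceeded its partner in 2 libraries and was well below it in the other 4. Psmb9 was at 0.0800, 0.666 and 1.21 times the level of Psmb6 against 0.152, 0.0696 and 0.248 times. Psmb10 was at 0.13, 0.595 and 0.493 times that of Psmb7 against 0.152, 0.118 and 0.180 times. These ratios do not depend on depth or on the scaling factor of a library, and the plot of subunit ratios gives them side by side.

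**Figure D2:**
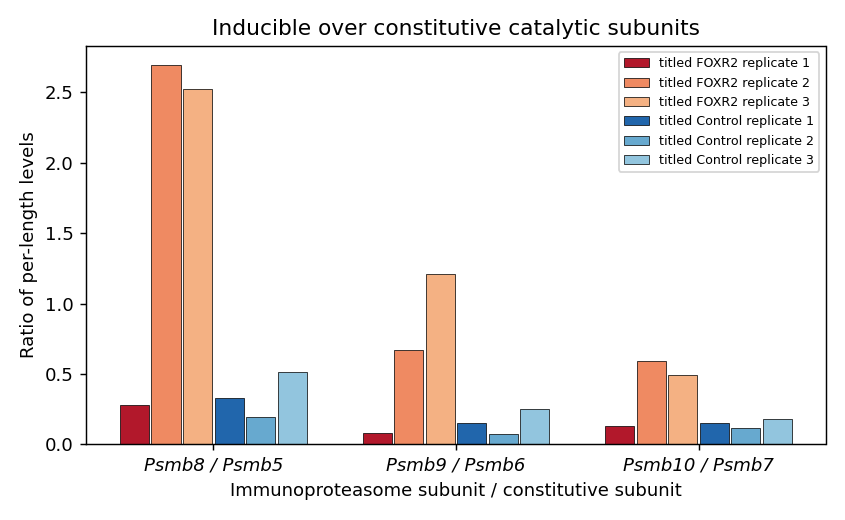
Ratio of the per-length level of each immunoproteasome subunit to that of its constitutive partner (y axis, linear from 0), with 1 bar per library and no error bar because each bar is a single library. Only FOXR2 replicates 2 and 3 are above 0.4 in all 3 pairs.

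On the same per-length scale (CPM per kilobase) B2m led in every library, at 505 to 3174, followed by the heavy chains at 85.8 to 1246 and the immunoproteasome subunits at 18 to 460.5. Nlrc5 was last in every library at 1.09 to 8.65. Among the genes in between, the order changed with the library. Tap1 was above Psmb10 in FOXR2 replicate 3 and Control replicate 3 and below it in the other 4 libraries.

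Tested across the table, all 10 genes had a log2 fold change above 0 (median 1.83, beside 0.011 over all tested genes), and 0 of 10 were called at an adjusted p under 0.05 by edgeR's quasi-likelihood test, where 0.908% of all tested genes were called higher. At an unadjusted p under 0.05, 7 of 10 were higher, beside 11.9% of all tested genes. Psmb9 and Psmb8 had the largest values, 2.39 ± 0.85 and 2.35 ± 0.84 (adjusted p = 0.147 and 0.148), and H2-K1 had 2.18 ± 0.77 (adjusted p = 0.146). Nlrc5 at 1.95 ± 0.67 had the smallest adjusted p, 0.137, and B2m at 1.64 ± 0.57 the next, 0.138. Tap1 was at 1.80 ± 0.73, Tapbp at 1.53 ± 0.76 and Tap2 at 1.11 ± 0.48 (adjusted p = 0.185, 0.259 and 0.202). H2-D1 was at 1.86 ± 0.76 and Psmb10 at 1.31 ± 0.59 (adjusted p = 0.189 and 0.223). DESeq2 called 6 of the 10 (H2-K1, H2-D1, B2m, Tap1, Psmb9 and Nlrc5, adjusted p = 0.0104 to 0.0370), where it called 6.91% of all genes it tested higher, and limma-voom called 0, with 1 at an unadjusted p under 0.05. Without FOXR2 replicate 1 edgeR still called 0, with all 10 higher at an unadjusted p under 0.05 (beside 11.3% of all tested genes), a smallest adjusted p of 0.0522 and a median of 2.33. Without FOXR2 replicate 2, FOXR2 replicate 3, Control replicate 1 or Control replicate 2, 0 of the 10 reached an unadjusted p under 0.05.

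**Figure D3:**
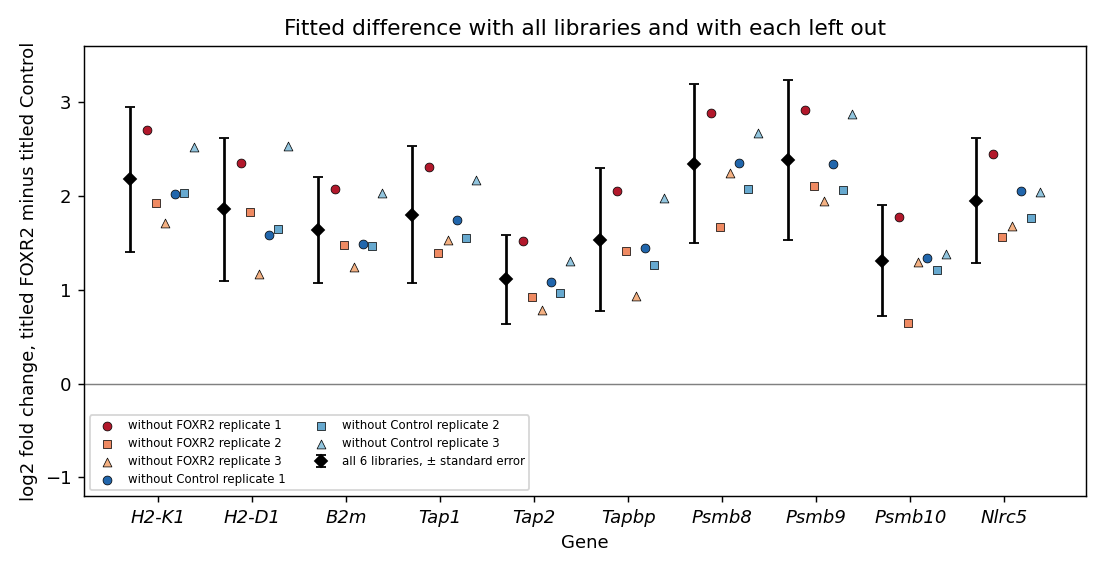
Fitted log2 fold change of each gene, titled FOXR2 minus titled Control (y axis), with all 6 libraries (black diamonds, ± standard error) and with each library left out in turn (coloured points). Every value is above 0, and the points without FOXR2 replicate 1 are the highest for 9 of the 10 genes.

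A height pattern was then counted over the table, with a rule written after the values of the 10 genes had been seen and used only as a description: the lower of FOXR2 replicates 2 and 3 at least 2 times the highest of the other 4 libraries. All 10 genes met it, as did 1.39% of all tested genes. Among 12 tested other class I heavy chains, 8 met it, among them H2-Q4, H2-Q5, H2-T10 and H2-T23. All 12 were fitted above 0 with a median of 2.24, and 0 were called by edgeR. At an unadjusted p under 0.05, 9 were higher, beside 11.9% of all tested genes. H2-T23, which encodes Qa-1, was at 3.65, 19.7 and 33.3 CPM in FOXR2 replicates 1 to 3 and at 2.40, 1.79 and 2.90 in Control replicates 1 to 3 (adjusted p = 0.0741). H2-M3, which presents formylated peptides, was at 8.03, 41.4 and 55.8 against 2.10, 3.58 and 7.38 CPM (adjusted p = 0.0781). For 6 of the 12, H2-T23, H2-M3 and H2-Q2 among them, the groups did not overlap, since FOXR2 replicate 1 was also above the libraries titled Control. Over all tested genes this share was 13.1%. H2-Q2 was at 14.6, 23.3 and 37.5 against 4.62, 3.58 and 8.83 CPM (adjusted p = 0.0611). Of the 22 listed, 7 had 0 counts in all libraries.

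Other genes of peptide supply and loading mostly lacked the pattern. Of 10 chaperones and trimming enzymes, Tapbpl, a relative of tapasin, was the 1 that met it, at 5.15, 22 and 18.5 CPM in FOXR2 replicates 1 to 3 against 7.14, 2.86 and 5.0 in Control replicates 1 to 3 (adjusted p = 0.152). Erap1, a trimming enzyme, missed it narrowly, at 12.7, 73.1 and 57.3 against 28.8, 18.7 and 16.4 CPM. Calr, a chaperone of the loading complex, was at 876, 1437 and 1110 CPM against 879, 865 and 715 (adjusted p = 0.245). For the 10 the median was 0.18 on the log2 scale, with 0 called (2 at an unadjusted p under 0.05, beside 24.9% of all tested genes in either direction). These 2 lay on opposite sides, Tapbpl at 1.61 and Uggt1, which checks the folding of glycoproteins, at -0.64. Uggt1 was at 115, 147 and 176 CPM against 245, 266 and 172 (adjusted p = 0.165). None of 11 other subunits of the 20S core met it, with a median of 0.00035 and 0 called (1 at an unadjusted p under 0.05). Psme2, a part of the interferon-inducible proteasome activator, was at 62.1, 210 and 131 CPM against 68.8, 42.5 and 70.2 (adjusted p = 0.161), and its partner Psme1 at 64.3, 164 and 221 against 83.9, 79.7 and 134 (adjusted p = 0.443).

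Of 18 tested regulators, 5 met the pattern, among them Irf1, Irf7 and Irf8 but not Irf2, Irf3 or Irf9. By edgeR 0 were called, with 8 at an unadjusted p under 0.05, beside 24.9% of all tested genes in either direction. Irf9 missed the pattern narrowly, at 23.1, 66.8 and 85.8 CPM in FOXR2 replicates 1 to 3 against 24.6, 17.9 and 34.3 in Control replicates 1 to 3. Irf1, which binds class I and immunoproteasome promoters, was at 43.7, 167 and 117 CPM in FOXR2 replicates 1 to 3 and at 45.6, 33.8 and 41.2 in Control replicates 1 to 3 (adjusted p = 0.112). Rela, an NF-kappaB subunit, lay the other way, at 52.8, 45.9 and 53.6 against 72.7, 92.5 and 69.0 CPM (adjusted p = 0.107). The interferon receptor and JAK kinase genes showed no such height. Of 7 tested 0 met it and 0 were called (0 at an unadjusted p under 0.05), with fitted values from -0.51 to 0.47. Ifng had 0 counts in all 6 libraries, which allows at most 3 counts, or 0.174 to 0.219 CPM, in each, and Ifnb1 had 1 count in Control replicate 3 and 0 elsewhere.

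Interferon response genes outside class I showed the same order in part. Of 15, 9 met the pattern, 15 were fitted above 0 and 0 were called, with a median of 1.83. At an unadjusted p under 0.05, 10 were higher, beside 11.9% of all tested genes. Among those that missed the pattern, Rsad2 was at 34.1, 94.0 and 148 CPM in FOXR2 replicates 1 to 3 against 109, 70.0 and 87.7 in Control replicates 1 to 3 (fitted 0.054). Cxcl10 was at 31.9, 53.3 and 14.0 against 27.2, 45.2 and 4.65 CPM (fitted 0.37). Igtp, an interferon-inducible GTPase, was at 136, 657 and 552 CPM in FOXR2 replicates 1 to 3 and at 140, 39.0 and 74.9 in Control replicates 1 to 3 (adjusted p = 0.0922), so FOXR2 replicate 1 was at the level of Control replicate 1. Cd274, which encodes PD-L1, was at 4.05, 17 and 12.7 against 3.36, 1.85 and 3.83 CPM (adjusted p = 0.109). For Cd274 all libraries titled FOXR2 were above those titled Control, replicate 1 by little.

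Genes were also ranked by likeness to the 10, measured as the Pearson correlation over the 6 libraries between log2(CPM + 0.5) and the mean standardised profile of the 10 genes, among the 10484 tested genes whose mean reached 5 CPM. Among the 10 nearest were H2-Q5 (0.997), Dkk3 (0.992), Trex1 (0.990), Usp18 (0.990), Irf7 (0.988), Rtp4 (0.988), Rnf19b (0.987), H2-T10 (0.986) and Blcap (0.985). With 6 libraries of which 2 stand high, such values mainly say that the same libraries are high. Usp18, which removes ISG15 from proteins, was at 18.4, 137 and 140 CPM in FOXR2 replicates 1 to 3 and at 29.9, 14.4 and 35.5 in Control replicates 1 to 3. Dkk3, a secreted protein of the Dickkopf family, was at 1.5, 31.8 and 47.4 against 3.72, 1.37 and 5.34 CPM. Blcap had a small span, 31.1, 43.7 and 43.4 against 29.9, 29.5 and 33.4 CPM. Within the 10, the correlation of each gene with the mean of the other 9 ran from 0.942 (Psmb10) to 0.998 (Tap2).

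Markers of other cells that carry class I were read in the same libraries. In bulk RNA, fewer cells of a type and less RNA per cell cannot be told apart. The 14 microglia and macrophage markers summed to 1341 CPM in FOXR2 replicate 2 and to 4.89 to 14.3 in the other 5 libraries, of which FOXR2 replicate 3 had 5.11. Aif1 and Trem2, defining markers of these cells, had 574 and 608 counts in FOXR2 replicate 2 and 0 in FOXR2 replicate 3, and C1qa was at 228 CPM in replicate 2. The 10 class I genes summed to 8800 CPM in FOXR2 replicate 3. Without FOXR2 replicate 2 their median log2 fold change was 1.52, with 0 of 10 at an unadjusted p under 0.05 and a smallest adjusted p of 0.207. That of Psmb10 was 0.65 without it and 1.31 with it, and the part of microglia markers in this gene's value was not tested. Class II genes, which microglia and macrophages carry, summed to 313 CPM in FOXR2 replicate 2, 91.4 in replicate 3 and 13.1 to 35.5 elsewhere. Of the sum in replicate 3, 61.8 CPM came from H2-DMa, while Cd74 was at 13.6 and H2-Aa at 5.84, against 165 and 60.2 in replicate 2.

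Markers of T and natural killer cells summed to 1.96 to 8.23 CPM over 12 genes, with Cd8b1, Ncr1, Nkg7 and Prf1 at 0 counts in all 6 libraries. Those of endothelial cells and pericytes summed to 2.63 to 16.1 CPM, highest in FOXR2 replicate 1, where Flt1 alone gave 12.2 CPM. The other markers of this list were split. Pecam1 and Cdh5 were highest in FOXR2 replicate 2, at 2.02 and 1.52 CPM against 0.391 and 0 in replicate 1. Kdr was highest in Control replicate 2, at 2.68 CPM. Of erythroid markers, 3 of 4 had 0 counts throughout. Those of B cells reached at most 0.886 CPM and those of neutrophils 1.14. The label gives the samples as brain tumor cells, with no cell type. Oligodendrocyte lineage markers summed to 8888, 9775 and 9137 CPM in FOXR2 replicates 1 to 3 and to 5147 to 6996 in the Control libraries. Pdgfra, which is also a gene of the constructs, made up 2497 to 3599 CPM of this against 2018 to 2506, and Sox10 and Mag were fitted below 0 (-0.19 and -0.26, adjusted p = 0.763 and 0.947). Neuron markers summed to 396 to 466 against 69.3 to 127 CPM, most of the FOXR2 sums from Dcx, Syt1 and Tubb3. Of 7 tested, 6 were fitted above 0, while Slc17a7 was fitted below it (-0.96, adjusted p = 0.391). Gad1 was at 45.2 CPM in FOXR2 replicate 1, 4.30 and 6.06 in replicates 2 and 3, and 2.16 to 7.69 in the Control libraries. Astrocyte markers summed to 455 to 1708 CPM, highest in FOXR2 replicate 3, where Aldoc alone gave 1150 CPM. The other astrocyte markers were split in that library. Slc1a2 and Slc1a3 were at their highest, 96.9 and 449 CPM, Aqp4 and Gja1 at their lowest, 0.365 and 0.146 CPM, and Gfap at 10.9 CPM. The part of these cell types in the class I values was not tested. The plot of summed lists shows the class I genes and the markers library by library.

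**Figure D4:**
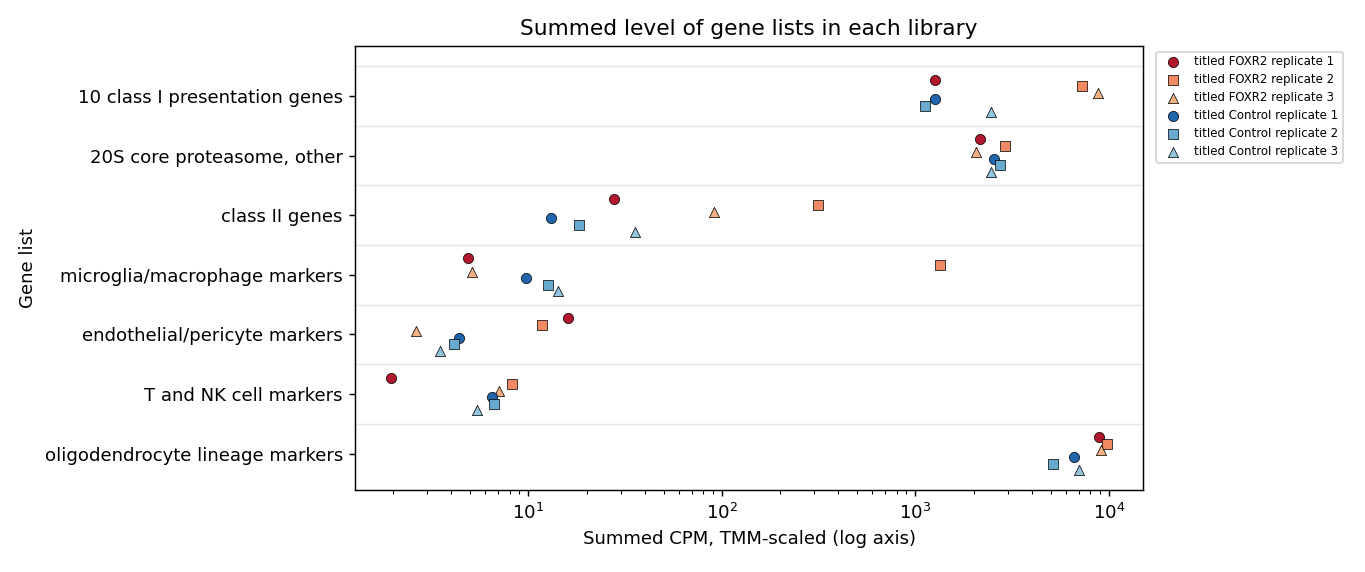
Summed level of each gene list (y axis) in each library (x axis, CPM after TMM scaling, log axis), with 1 point per library. The 10 class I genes sum to 7301 and 8800 CPM in FOXR2 replicates 2 and 3 and to 1126 to 2457 in the other 4, while the microglia and macrophage markers are high in FOXR2 replicate 2 alone.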

How the data were processed

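The members and gene lists were chosen with earlier results of these data known. Poly(A) RNA was sequenced as single reads of 51 bases with a strand-keeping kit, per the labels' protocols. The authors deposited 1 table of whole-number read counts per gene symbol. TopHat and DESeq2 and the human build hg19 are named in the submitters' processing notes, and the counting tool, the annotation and the strand setting were not given in the sources used here. A sheet of group names (no measurement) was deposited by the authors and was used only to compare it with the titles.

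Libraries were matched to titles by the code that ends each title. The model was edgeR 4.0.16 (R 4.3.3): filterByExpr with a count minimum of 10, TMM factors, quasi-likelihood F test, Benjamini-Hochberg adjustment over all 13101 tested genes, no covariate. Log2 fold changes use a prior count of 0.125. Each standard error was derived from the test, as the absolute log2 fold change divided by the square root of its F statistic. Transcript lengths are merged exons of GENCODE M21 coding transcripts. Every pair of libraries with the same title differed by more than counting noise (median chi-square per gene at least 8.68). Alternatives were DESeq2 1.42.0, limma-voom (limma 3.58.1), RLE factors, total-count scaling, no filter, the replicate number as a block, animal sex as a term, and each library left out. The fits were tested on simulated data.

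Named genes are the 10 members, the construct genes, of each other list the 3 with the smallest p (all where 5 or fewer were tested), and the 10 of highest likeness, leaving out predicted genes, clones and pseudogenes. Other genes named beside a count of the height pattern, and marker genes, were chosen after their values were seen. An item that these rules allow is not reported here.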

Additional observations from a re-analysis of the deposited data

How the results depend on the processing

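None of the 10 class I genes changed sign in any of the 13 alternatives. No pairing by replicate number was seen: deviations from the group means of same-numbered libraries correlated at -0.0064, -0.23 and -0.0086. Libraries of unlike number correlated at -0.197 to 0.237. With so few libraries, each centred on its own group mean, this cannot exclude a pairing. DESeq2 called 6 of the 10 genes where edgeR called 0, and its calls over all genes were 947 higher and 947 lower against 119 and 181. Its median log2 fold change, over all genes with a fitted value and no count filter, was 0.13. That of edgeR without the filter was 0.10. The other 12 alternatives called 0 of the 10. Total-count scaling gave 105 higher and 119 lower. With the replicate block 0 genes were called higher and 0 lower (2652 at an unadjusted p under 0.05), the 10 genes had a median log2 fold change of 1.51, and with animal sex as a covariate 7 and 0 were called (2398 at an unadjusted p under 0.05). Leaving out 1 library gave 1 to 123 higher and 0 to 82 lower over all genes. For the 10 genes it gave a median of 1.41 (without FOXR2 replicate 3) to 2.33 (without FOXR2 replicate 1), and 0 at an unadjusted p under 0.05 without FOXR2 replicate 2, FOXR2 replicate 3, Control replicate 1 or Control replicate 2. H2-D1 moved from 1.86 to 1.17 without FOXR2 replicate 3, Tapbp from 1.53 to 0.93 without the same library, and Psmb10 from 1.31 to 0.65 without FOXR2 replicate 2. The cause of these shifts was not tested. Where an arm keeps 2 libraries, their spread is pooled with that of the other arm. Depth was no limit for these genes, which had at least 143 counts in every library.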

Other observations

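Some relatives of class I and proteasome genes separated the groups without the height in FOXR2 replicates 2 and 3. Fcgrt, the neonatal Fc receptor heavy chain, which also pairs with B2m, was at 15.7, 14.0 and 18.4 CPM in FOXR2 replicates 1 to 3 and at 2.04, 6.91 and 2.03 in Control replicates 1 to 3 (log2 fold change 2.13 ± 0.53, edgeR adjusted p = 0.0763). Mr1, which presents vitamin B metabolites, was at 5.61, 5.06 and 12.8 against 0.780, 2.21 and 0.871 CPM (adjusted p = 0.0665). On the other side lay Pomp, a proteasome assembly chaperone, at 163, 177 and 128 against 343, 272 and 273 CPM (-0.92 ± 0.20, adjusted p = 0.0589), and Psme3, a proteasome activator of the nucleus, at 156, 181 and 137 against 285, 258 and 226 CPM (-0.69 ± 0.19, adjusted p = 0.0865). The groups did not overlap for these 4 genes, which were picked out for this. They were 2 of 4 tested class I relatives and 2 of 5 tested proteasome activator and assembly genes. Over all tested genes, 13.1% were apart with titled FOXR2 higher, the side of Fcgrt and Mr1. The share apart on the other side, that of Pomp and Psme3, is not given here. By edgeR 0 of the 4 were called, with all 4 at an unadjusted p under 0.05, beside 24.9% of all tested genes in either direction. DESeq2 called all 4 (adjusted p = 0.0010 for Mr1, 0.0021 for Fcgrt, 0.0022 for Pomp and 0.0211 for Psme3). Of the 13713 genes it tested, it called 947 higher (6.91%) and 947 lower.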
